A study of Mus musculus with 68 samples.

Results

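The clustered protocadherins are the genes of the Pcdha, Pcdhb and Pcdhg subclusters, and they were measured here by RNA-seq in the prefrontal cortex of mice. Members were taken by symbol (Pcdha1 to Pcdha12, Pcdhac1 and Pcdhac2, Pcdhb2 to Pcdhb22, and the Pcdhga, Pcdhgb and Pcdhgc genes) with a mean normalized count of at least 5 over the 68 libraries. This gave 57 of the 18088 genes in the table: 14 alpha, 21 beta and 22 gamma members, and no member in the table fell under the minimum. The annotation holds 58 clustered protocadherins, of which Pcdhb1 was not analysed here. All mice were C57BL/6J, and tissue was taken at postnatal day 25. They were either heterozygous at Adnp (HT in the labels) or wild type (WT), and the labels do not say which mutation the HT mice carry. Adnp encodes activity-dependent neuroprotector homeobox, a chromatin protein. Pups had received vehicle, fluoxetine (a serotonin reuptake inhibitor) or lithium (a mood stabiliser) through the milk of the dam from postnatal day 3 to day 24, about 3 weeks. The vehicle arm held 16 HT and 15 WT libraries, the fluoxetine arm 10 and 10, and the lithium arm 9 and 8, with females and males in each. Litters and dams are not given in the labels, so the p-values measure only the spread between these libraries.

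Clustered protocadherins are cadherin-repeat adhesion proteins of the neuronal surface that bind like partners on a facing membrane. Each variable exon of the alpha and gamma subclusters has its own promoter and is spliced to constant exons shared by its subcluster, which encode the common cytoplasmic part. Beta genes are a single exon each. A neuron uses a small, partly random selection of the alpha, beta, gamma-A and gamma-B genes, a choice tied to CTCF, cohesin and DNA methylation, and the combination serves self-recognition between neurites. The C-type genes at the ends of the alpha and gamma subclusters (Pcdhac1, Pcdhac2, Pcdhgc3, Pcdhgc4 and Pcdhgc5) are expressed more broadly and less randomly. Among them Pcdhac2 is known for the tiling of serotonergic axons, Pcdhgc3 for dendrite growth and Pcdhgc4 for neuronal survival.

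The members lie on the plus strand of mouse chromosome 18 (GRCm38), from 36930184, the start of Pcdha1, to 37841873, the end of the shared gamma exons. Their first exons span 889 kb in the order alpha, beta, gamma. The alpha genes run from Pcdha1 to Pcdhac2, whose first exon starts at 37143503, and share 3' exons that end at 37187657. The beta genes run from Pcdhb2 (start 37294812) to Pcdhb22 (37517871 to 37524479), where Pcdhb22 overlaps the end of Pcdhb21. The gamma genes run from Pcdhga1 (start 37661793) to Pcdhgc5 (start 37819513). The gene ENSMUSG00000007440 is Pcdha10 by its RefSeq position and is called that here, although GENCODE vM21 also gives it the symbol Pcdha11. The gene called Pcdha11 here is ENSMUSG00000102206, whose first exon starts at 37010712.

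Reads from shared exons cannot be assigned to 1 gene by sequence alone, and this sets how sharply each member was measured. The longest annotated transcript of every alpha member carries 2860 bases of shared exons, and that of the gamma members 2116 to 2119 bases. Beta members share none. Of the 31-base words in the first exons, the share found in no other gene's transcripts had a median of 78.4% for alpha (3.76 to 100%), 87.9% for beta (77.5 to 94.5%) and 95.1% for gamma (57.6 to 100%). Pcdha4 had the lowest share, since 96.2% of its first-exon words also lie in the predicted gene Gm42416, so its values are uncertain. Pcdha7 with 53.9%, Pcdhga4 with 57.6% and Pcdha6 with 58.7% were low as well. The words of Pcdhga11 (99.3%), Pcdhga7 (99.9%), Pcdhga2 (96.1%), Pcdhga9 (91.9%) and Pcdhb17 (91.5%) were nearly all their own, and those of Pcdha11 (78.5%) and Pcdha12 (76.8%) less so.

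The libraries held 22.4 to 37.5 M recovered reads (median 30.7, M for mega), of which members took 0.102 to 0.124%. In the levels of 360 pseudogenes the libraries fell into 3 sets that the labels do not name. Every fluoxetine library was in set 1, together with 8 from HT mice on vehicle. Every lithium library was in set 2, with 6 HT and 5 WT libraries of the vehicle arm. The last 12 vehicle libraries, 10 WT and 2 HT, formed set 3. The genotype comparison under fluoxetine therefore lies in set 1 and that under lithium in set 2, while under vehicle genotype and set are partly confounded. Genotype calls and totals of the members under vehicle are given below also from set 2 alone, and fluoxetine in WT mice cannot be told apart from set. The level of Adnp itself was higher in the HT libraries over all treatments (log2 difference 0.30 ± 0.05, SE, adjusted p = 1.73e-05), and a gene-level value does not show the allele. Markers of excitatory neurons were present in every library. Summed markers of olfactory bulb neurons or of striatal neurons exceeded 2 times their median in 24 libraries (5 of 16 HT and 6 of 15 WT under vehicle, 4 of 10 and 5 of 10 under fluoxetine, 3 of 9 and 1 of 8 under lithium), and the counts of genotype calls are given below also without them.

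Per kilobase of transcript the C-type members of the gamma subcluster were the most abundant. Pcdhgc5 averaged 1389.5 ± 213 normalized counts per kb (SD over 68 libraries), Pcdhgc4 910.5 ± 154, Pcdhgc3 791 ± 97.9 and Pcdhac2 454 ± 45.2. Pcdhgc5 stood above Pcdhgc4 by more than their SDs, and Pcdhgc4 and Pcdhgc3 overlapped. The highest member outside the C-type was Pcdhga11 with 227 ± 45.8, followed by Pcdhga3 with 147 ± 20.9. Pcdhac1, the other C-type gene, ranked 32 of 57 with 55.5 ± 10.99. The lowest were Pcdhgb8 (10.1 ± 2.99), which the annotation calls a polymorphic pseudogene, and Pcdha8 (8.05 ± 3.54). From Pcdhga3 down to Pcdhb4 the ranges of mean ± SD of all neighbours in this order overlapped. The median level per kb was 88.4 for gamma-A, 63.9 for alpha outside the C-type, 51.0 for gamma-B and 35.7 for beta. In total the gamma subcluster gave 67.99% of the members' counts, alpha 19.98% and beta 12.02%, and the 5 C-type genes together 53.3 ± 2.28%.

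**Figure D1:**
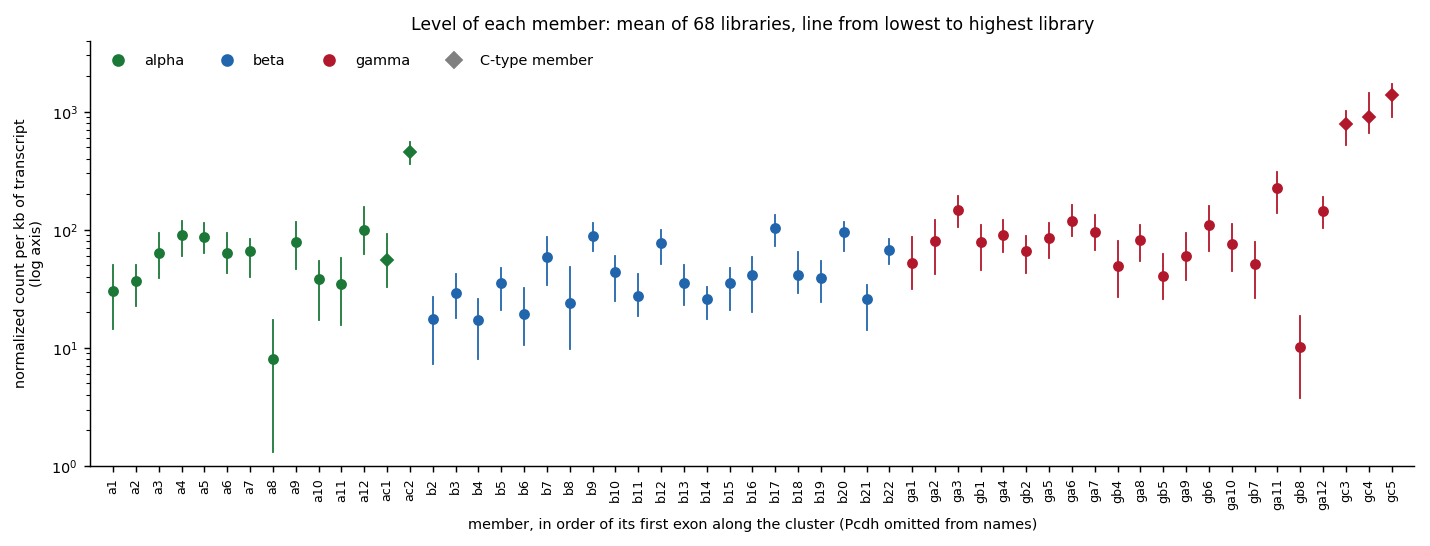
Level of the 57 members in genome order, as mean normalized count per kb of transcript on a log axis; each vertical line runs from the lowest to the highest of the 68 libraries, colours mark the subclusters and diamonds the C-type genes. Of the 5 diamonds, 4 stand highest, between 454 and 1389.5, while Pcdhac1 lies among the other members at 55.5.

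Heterozygous and wild-type cortex differed in many single members of the cluster, in both directions. In the genotype comparison over all treatments (the mean of the 6 treatment-by-sex contrasts), 33 of 57 members (57.9%) passed an adjusted p under 0.05, against 7.43% of all genes tested. Of these 33 members, 16 were higher (4.31% of all genes) and 17 lower (3.12%) in HT, and the median log2 difference of the 57 was 0.00, as it was −0.00 for all genes. In bulk tissue, fewer cells using a gene and less RNA per cell cannot be told apart. By subcluster, 5 alpha members were higher and 4 lower of 14, 7 beta members higher and 4 lower of 21, and 4 gamma members higher and 9 lower of 22. The medians were 0.11 for alpha, 0.06 for beta and −0.10 for gamma. Within gamma, 2 gamma-A members rose and 6 fell of 12, 2 gamma-B members rose and 3 fell of 7, and none of the 3 gamma C-type genes passed by limma, edgeR or DESeq2.

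Of 54 neighbouring pairs within a subcluster, 32 had the same sign: 4 of 13 in alpha, 14 of 20 in beta and 14 of 21 in gamma. The longest stretch of 1 sign was Pcdhb12 to Pcdhb22, where all 11 members were on the higher side in HT (log2 differences 0.02 to 0.38, median 0.16) and 7 passed. It covers 82.3 kb between the first and last start. In the gamma subcluster the 10 members from Pcdhgb1 to Pcdhga9 were on the lower side over 56.7 kb (−0.54 to −0.01, median −0.26), and 8 passed. Pcdhb6 to Pcdhb9 all fell, by 0.14 to 0.34 on the log2 scale, over 66.9 kb. The other signs alternated over shorter stretches: Pcdhga2 rose just upstream of the long lower stretch, and Pcdhgb6 rose, Pcdhga10 fell, and Pcdhgb7 and Pcdhga11 rose just downstream of it. Pcdha11 and Pcdha12 both fell, with Pcdha9 upstream and Pcdhac1 downstream higher. Pcdha1 to Pcdha7 showed no long stretch: Pcdha1 (0.35 ± 0.08, adjusted p = 0.00153) and Pcdha3 (0.26 ± 0.06, 6.34e-04) rose, and Pcdha2 (−0.26 ± 0.06, 0.00258) and Pcdha5 (−0.17 ± 0.04, 0.00417) fell.

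**Figure D2:**
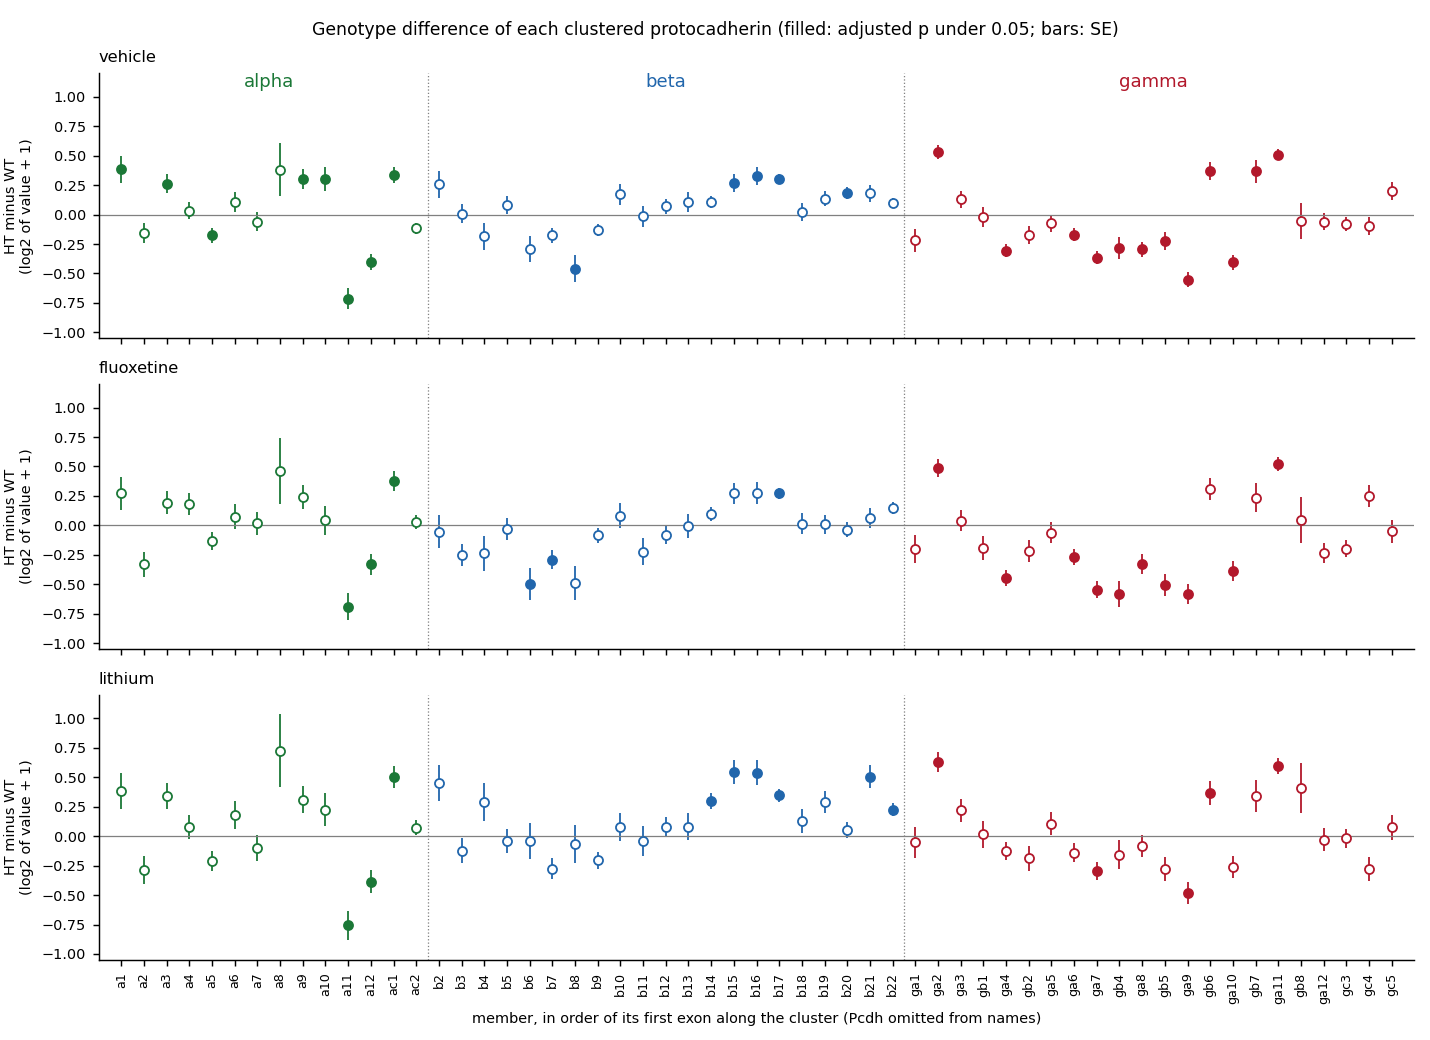
HT minus WT log2 difference of the 57 members in genome order under vehicle, fluoxetine and lithium (1 panel each), with bars of 1 SE, filled points where the adjusted p was under 0.05 and colours for alpha, beta and gamma. The points from Pcdhgb1 to Pcdhga9 lie mostly below 0, those from Pcdhb12 to Pcdhb22 mostly above, and Pcdhga2 and Pcdhga11 stand high in all 3 panels.

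Pcdhga11 (ENSMUSG00000102742, first exon from 37755731) was the member with the smallest p. Under vehicle its normalized counts ran from 1091 over a median of 1281 to 1476 in 16 HT libraries, and from 786 over 893 to 1016 in 15 WT libraries. Under fluoxetine they were 1104, 1278 and 1346 in HT and 684, 894 and 1064 in WT, and under lithium 1121, 1292 and 1342 against 666, 854 and 1027 (lowest, median and highest each). The genotypes did not overlap in any arm, nor over all 68 libraries, where the lowest of 35 HT libraries (1091) lay above the highest of 33 WT libraries (1064). Of all genes tested, 0.0502% were separated in this way over all libraries, 0.128% under vehicle. The means were 1267 ± 97.7 (SD) in HT and 879 ± 96.4 in WT, a log2 difference of 0.54 ± 0.03 (SE) and a 1.46-fold higher level (adjusted p = 4.42e-20). By arm the difference was 0.51 ± 0.05 under vehicle, 0.52 ± 0.06 under fluoxetine and 0.60 ± 0.07 under lithium.

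Pcdhga2 (ENSMUSG00000103332, first exon from 37668953) was higher in HT by nearly the same amount. Its HT libraries ran from 339 over 443 to 487 under vehicle, where WT ran from 198 over 320.1 to 429. Under fluoxetine HT lay at 357, 423 and 488 against 252, 306 and 331 in WT, and under lithium at 425, 449.7 and 566 against 228, 311 and 379.9. The genotypes overlapped under vehicle only, where 1 HT female library at 339 stood apart from the next at 422. The log2 difference over all treatments was 0.55 ± 0.04 (1.46-fold, adjusted p = 3.82e-16), with 0.53 ± 0.06 under vehicle, 0.48 ± 0.08 under fluoxetine and 0.63 ± 0.08 under lithium.

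Pcdhga9 and Pcdhga7, both in the lower stretch, fell in every arm. Pcdhga9 (ENSMUSG00000102440, first exon from 37736936) ran from 178 over 231 to 279.7 in HT and from 278 over 329.5 to 407 in WT under vehicle. It was at 181, 235 and 276 against 288, 354 and 391 under fluoxetine, and at 180.5, 221 and 271 against 240.4, 318 and 441 under lithium. HT and WT did not overlap under fluoxetine and overlapped only at the edge under vehicle and lithium. The difference over all treatments was −0.54 ± 0.05 (0.688-fold, adjusted p = 1.56e-14).

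Pcdhga7 (ENSMUSG00000103472, first exon from 37714764) was at 325, 394 and 503 in HT against 412, 516 and 636 in WT under vehicle. Under fluoxetine the values were 322, 367 and 402 against 468, 514 and 628, without overlap, and under lithium 340.0, 407 and 447 against 401, 509.7 and 622. The difference was −0.40 ± 0.04 over all treatments (0.757-fold, adjusted p = 4.92e-12). It was −0.55 ± 0.07 under fluoxetine and −0.29 ± 0.08 under lithium, where the call was the weakest (0.0275) and was lost (adjusted p 0.054 to 0.0847) without any 1 of HT lithium female 4, HT lithium male 5, WT lithium female 3, WT lithium male 1 or WT lithium male 3. Pcdhga4, in the same stretch, fell under vehicle (−0.31 ± 0.05) and fluoxetine (−0.44 ± 0.07, adjusted p = 5.87e-06), with −0.12 ± 0.08 under lithium (0.443). Its HT medians were 374, 372 and 409 under vehicle, fluoxetine and lithium, and its WT medians 480.1, 501 and 460.5.

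In the alpha subcluster Pcdha11 had the largest difference of the 57 members over all treatments. Under vehicle it ran from 83.2 over 136 to 178 in HT and from 142 over 218 to 302 in WT. The values were 108, 147 and 187 against 180.3, 236 and 312 under fluoxetine and 114, 142 and 179 against 151, 259 and 307 under lithium. The genotypes overlapped at the edge in each arm, and the means over all libraries were 140.2 ± 24.5 in HT and 233 ± 44.5 in WT. Pcdha11 fell by 0.72 on the log2 scale (SE 0.06, 0.607-fold, adjusted p = 4.74e-14) over all treatments, by 0.71 under vehicle, 0.69 under fluoxetine and 0.76 under lithium.

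Pcdha12 (ENSMUSG00000103310, first exon from 37020149), the next gene along, was at 336, 423 and 536 in HT and 433, 609.5 and 703 in WT under vehicle. Its HT values were 365, 444 and 512 against 479, 532 and 683 under fluoxetine, and 443, 576 and 608 against 563, 670.0 and 836 under lithium. The groups overlapped in each arm. The difference was −0.37 ± 0.05 over all treatments (adjusted p = 5.60e-08), and −0.40 ± 0.07, −0.33 ± 0.09 and −0.39 ± 0.10 under vehicle, fluoxetine and lithium. The fluoxetine call (0.0291) was lost (0.0502 to 0.0713) without any 1 of HT fluoxetine female 2, HT fluoxetine female 4, HT fluoxetine male 1, HT fluoxetine male 2, WT fluoxetine female 3, WT fluoxetine female 5 or WT fluoxetine male 5. The lithium call (0.0181) was lost (0.0567 and 0.0929) without WT lithium male 1 or WT lithium male 2.

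Pcdhac1 (ENSMUSG00000103255, first exon from 37090013), the first C-type gene, rose in each arm. It ran from 239 over 339 to 389.9 in HT and from 201.4 over 264 to 332 in WT under vehicle. Under fluoxetine HT was at 248, 322 and 394 and WT at 178, 261 and 310.0, and under lithium HT was at 333, 350.1 and 499 and WT at 235, 268 and 289. The genotypes did not overlap under lithium and overlapped in the other arms. The difference over all treatments was 0.40 ± 0.05 (1.32-fold, adjusted p = 8.72e-10). Pcdha9 (0.28 ± 0.06, adjusted p = 3.78e-04) and Pcdha3 rose over all treatments and under vehicle, with HT medians of 469 and 377 against WT medians of 361 and 306, and overlapping groups. The Pcdha3 call under vehicle (0.0212) was lost without WT vehicle male 1 or WT vehicle male 2 (0.0566 and 0.0605), and within set 2 the difference was 0.25 ± 0.14 (0.951). Pcdha8, the least abundant member, was also higher (0.52 ± 0.16, 0.027), and this call was lost without WT lithium male 1 (0.0801).

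Of the 11 beta members that passed over all treatments, 7 were higher in HT. Pcdhb17 (ENSMUSG00000046387, 37484795 to 37489454) was at 446, 524 and 581 in HT and 337, 426 and 509 in WT under vehicle. Its values were 499, 552 and 618 against 406, 454 and 509.9 under fluoxetine, and 485, 536 and 573 against 375, 412 and 481 under lithium. The lithium groups did not overlap, the fluoxetine groups overlapped at the edge, and the vehicle groups overlapped. The difference was 0.31 ± 0.03 over all treatments (1.24-fold, adjusted p = 4.14e-13), and 0.30 ± 0.04, 0.27 ± 0.05 and 0.35 ± 0.06 in the 3 arms.

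The genes just upstream of Pcdhb17 also rose. Pcdhb16 (0.38 ± 0.05, adjusted p = 1.76e-07) had medians of 233, 245 and 245 in HT and 201.4, 199.7 and 175 in WT under vehicle, fluoxetine and lithium. Pcdhb15 (0.36 ± 0.05, 2.09e-07) had medians of 111, 113 and 107 against 86.8, 93.0 and 81.1. Its genotypes did not overlap under lithium, where HT ran from 96.1 to 131 and WT from 59.3 to 87.9. Pcdhb21, which shares sequence with the overlapping Pcdhb22, also stood apart under lithium (117 to 158 against 66.0 to 117, with the lowest HT value just above the highest WT value), at 0.51 ± 0.09 (4.06e-04).

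Pcdhb22 rose over all treatments by less (0.16 ± 0.03, adjusted p = 4.73e-05), with HT medians of 454, 459 and 462 and WT medians of 430.0, 420.2 and 395. Its call under lithium (0.0156) was lost without WT lithium male 2 (0.106), as was that of Pcdhb14 (0.00677, then 0.136). Pcdhb7, in the lower stretch, fell (−0.25 ± 0.05, 7.80e-05), with medians of 187, 204 and 191 in HT and 213, 242 and 232 in WT.

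The 4 abundant C-type genes did not pass in any arm by limma, edgeR or DESeq2. Unadjusted p-values were under 0.05 for Pcdhac2 and Pcdhgc5 under vehicle, for Pcdhgc3 and Pcdhgc4 under fluoxetine and for Pcdhgc4 under lithium. Pcdhac2 had medians of 2583 (HT) and 2806 (WT) under vehicle, 2593 and 2548 under fluoxetine, and 2871 and 2745 under lithium, and a difference over all treatments of −0.01 ± 0.03. Pcdhgc3 was at −0.10 ± 0.04 (adjusted p = 0.143) and Pcdhgc5 at 0.07 ± 0.05 (0.505). Pcdhgc4 was at −0.04 ± 0.05 (0.738) over all treatments, with opposite signs in the drug arms, 0.25 ± 0.09 (0.188) under fluoxetine and −0.28 ± 0.10 (0.146) under lithium. Its HT libraries ran from 4068 over 4632 to 5551 against 3461, 3963 and 4588 in WT under fluoxetine, and from 3346 over 4282 to 6065 against 4238, 5026 and 7314 under lithium.

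**Figure D3:**
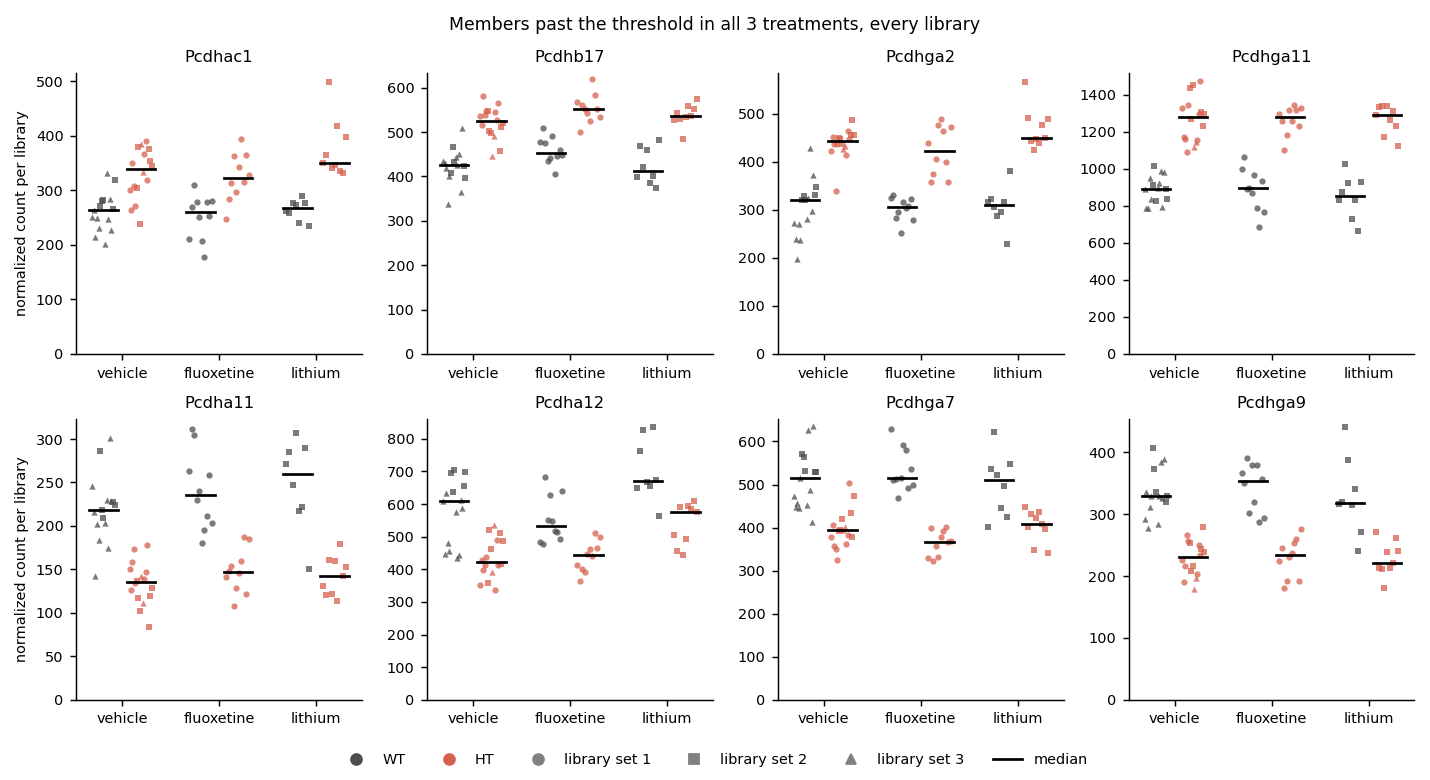
Normalized count of the 8 members that passed in all 3 treatments, in every library; WT libraries are grey and HT libraries red, marker shapes give the library set and bars the medians. Pcdhga11 shows no overlap between genotypes in any treatment. In HT libraries under vehicle, the values of Pcdha11 and Pcdhga11 differ in range between library sets, which was not tested.

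By arm, 25 of 57 members (43.9%) passed under vehicle (15.0% of all genes tested), 16 (28.1%) under fluoxetine (1.98%) and 14 (24.6%) under lithium (2.51%). The 25 under vehicle were 13 higher (7.74% of all genes) and 12 lower (7.21%). The 16 under fluoxetine were 4 higher (1.33%) and 12 lower (0.653%), and the 14 under lithium 10 higher (1.48%) and 4 lower (1.03%). The arms share no library. Pcdhac1, Pcdhb17, Pcdhga2 and Pcdhga11 rose in all 3, and Pcdha11, Pcdha12, Pcdhga7 and Pcdhga9 fell in all 3. A further 9 members passed in 2 arms and 13 in 1, and 27 passed in none. The sign was the same in all 3 arms for 43 of 57 members, 22 higher and 21 lower. The shares of all genes that passed in 3, 2 or 1 arms, or kept 1 sign, were not computed. Of the members that passed in any arm, only Pcdhb20 had another sign elsewhere (0.18 ± 0.05 under vehicle, adjusted p = 0.00872, and −0.04 ± 0.06 under fluoxetine). Within set 2 Pcdhb20 was at 0.16 ± 0.08 under vehicle (0.847).

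Across the 57 members, which share libraries and are not independent, the log2 differences under fluoxetine and lithium had a Pearson r of 0.83 and a Spearman rho of 0.83. The sign was shared by 47 members, and 8 passed in both arms with that sign. Vehicle against fluoxetine gave r = 0.91 and rho = 0.89 with 46 shared signs, and vehicle against lithium 0.87 and 0.86 with 50. With the vehicle difference taken within set 2, the values were 0.86 and 0.88 with 52 shared signs against fluoxetine, and 0.87 and 0.84 with 48 against lithium. These are descriptions over genes that carry no p, and the matching values over all genes were not computed. Genotypes without overlap numbered 1 member under vehicle (0.128% of all genes tested), 4 under fluoxetine (0.307%) and 6 under lithium (0.597%). Under fluoxetine they were Pcdhga2, Pcdhga11, Pcdhga7 and Pcdhga9, and under lithium Pcdhac1, Pcdhb15, Pcdhb17, Pcdhb21, Pcdhga2 and Pcdhga11.

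**Figure D4:**
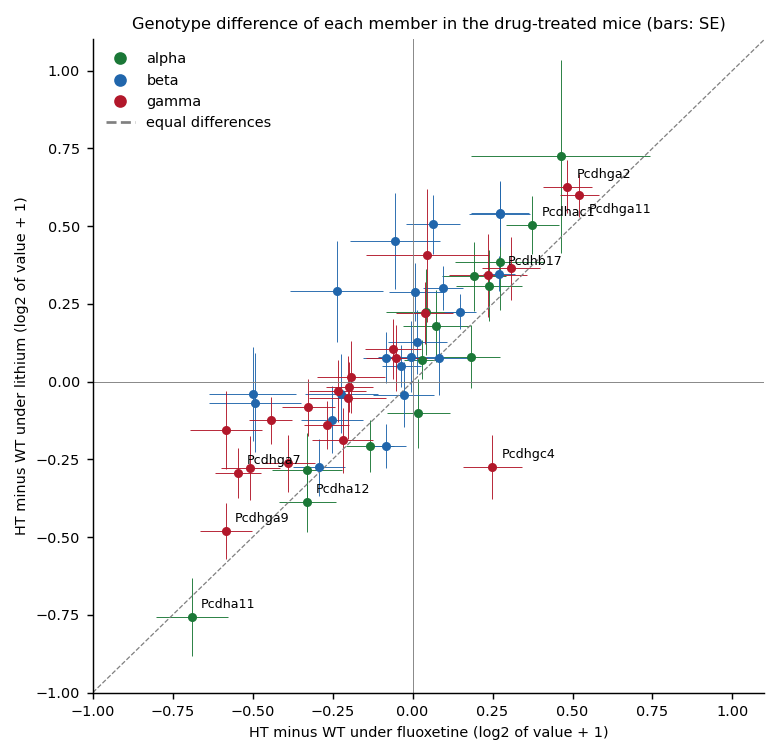
HT minus WT log2 difference of each member under fluoxetine (x axis) and under lithium (y axis), with bars of 1 SE and a dashed line of equal values; the 8 members that passed in all 3 arms and Pcdhgc4 are named. Pcdha11 lies far down both axes, Pcdhga2 and Pcdhga11 far up both, and Pcdhgc4 has opposite signs.

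Within library set 2 alone, which holds 6 HT and 5 WT vehicle libraries, 7 members (12.3%) passed against 0.536% of all genes. Pcdhga11 (0.58 ± 0.08, adjusted p = 2.51e-06), Pcdhga2 (0.46 ± 0.10, 0.00518) and Pcdhb17 (0.26 ± 0.07, 0.0472) were higher. Pcdha11 (−1.03 ± 0.15, 3.19e-06), Pcdha12 (−0.57 ± 0.11, 0.00165), Pcdhga9 (−0.54 ± 0.11, 0.00203) and Pcdhga7 (−0.39 ± 0.10, 0.0335) were lower. All 7 are among the 8 that passed in every arm, and Pcdhac1 was the exception (0.21 ± 0.11, 0.953). In the fit of group by library set, 29 members passed over all treatments, 14 higher and 15 lower (4.65% of all genes). The other members called under vehicle in all libraries, such as Pcdhga4 (−0.29 ± 0.09, 0.234) and Pcdha9 (0.34 ± 0.14, 0.596), did not pass in this smaller set.

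Pcdha11 did not overlap in this set, with 83.2, 118 and 137 in HT against 209.6, 224 and 287 in WT. Pcdhga11 was at 1229, 1299.8 and 1452 against 828, 893 and 1016. In set 3 the 10 WT libraries ran from 786 over 893 to 988 for Pcdhga11, and the 2 HT libraries lay at 1120.0 and 1143. Of the set 2 calls, Pcdhb17 was lost without any 1 of 9 of the 11 libraries (adjusted p 0.0612 to 0.367), Pcdhga7 without any 1 of 8 (0.0635 to 0.164), and Pcdhga2 without WT vehicle male 6 (0.0736). For Pcdhb17 the 2 whose removal kept the call were HT vehicle male 6 and WT vehicle female 7. For Pcdhga7 the 3 were HT vehicle female 8, HT vehicle male 8 and WT vehicle female 8.

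Without the 24 libraries with high olfactory bulb or striatal markers, 23 members passed over all treatments (12 higher, 11 lower; 3.05% of all genes). All 23 were among the 33, with the same sign. By arm 11 passed under vehicle (1.38% of all genes), 7 under fluoxetine (0.508%) and 7 under lithium (1.04%), from 44 libraries in which 2 groups, HT females under fluoxetine and under lithium, kept 1 library each, assumed to vary like the other groups. Pcdhb17, Pcdhga2, Pcdhga11 and Pcdhga9 passed in every arm, with Pcdhga11 at 0.53, 0.61 and 0.60 under vehicle, fluoxetine and lithium. The calls lost were those of Pcdhac1 under vehicle (0.26, adjusted p = 0.146), Pcdha11 under fluoxetine (−0.74, 0.0598) and lithium (−0.66, 0.0553), Pcdha12 under fluoxetine (−0.40, 0.266) and lithium (−0.27, 0.335), and Pcdhga7 under lithium (−0.27, 0.181), among the 8 members that had passed in all 3.

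The summed counts of the alpha and of the gamma members differed between genotypes by less than 1 SD of either genotype in each arm. The summed alpha counts were 6555 ± 492.8 in HT and 6729 ± 442 in WT under vehicle, 6459 ± 368 and 6411 ± 393 under fluoxetine, and 7187 ± 531 and 6975 ± 431 under lithium. The gamma sums were 22663 ± 1123 and 22471 ± 1727, 21979 ± 1540 and 22324 ± 1077, and 23773 ± 640.2 and 23989 ± 1122 in the same order. The beta sums were 4088 ± 237 and 3842 ± 343 under vehicle, 4151 ± 115 and 4128 ± 291 under fluoxetine, and 4129 ± 239.6 and 3752 ± 319 under lithium. The beta difference exceeded the SD of both genotypes under lithium, and that of HT but not of WT under vehicle. Within set 2 the vehicle means were 6736 ± 350.1 in HT and 6922 ± 193 in WT for alpha, 4023 ± 197 and 3899 ± 214 for beta, and 23855 ± 322 and 23884 ± 741 for gamma, each pair within 1 SD of either genotype. No test was run on sums.

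**Figure D5:**
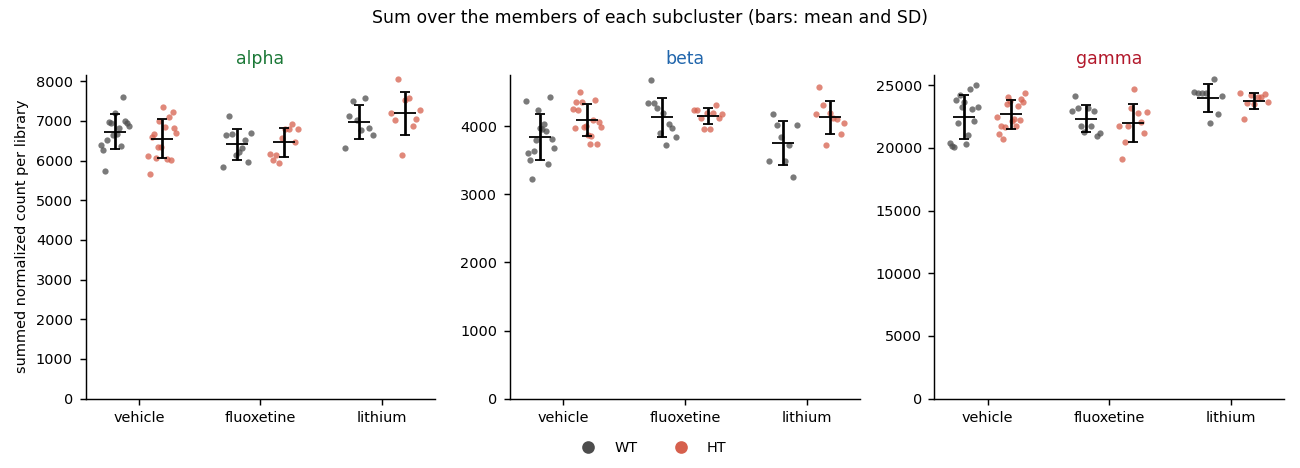
Summed normalized counts of the alpha, beta and gamma members in every library by genotype and treatment, with the mean and SD of each group. The alpha and gamma means of HT and WT lie within 1 SD of each other in every treatment, and the beta means under lithium are 4129 in HT and 3752 in WT.

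Few members passed between drug and vehicle. Fluoxetine in HT mice changed 0 of 57 members by limma (1.22% of all genes tested), with 2 under an unadjusted p of 0.05, 0 by edgeR and 1 lower by DESeq2 (2.09% of all genes). The smallest adjusted p was 0.0601, for Pcdhgc3 (−0.23 ± 0.07), whose HT median was 3132 under fluoxetine and 3762 under vehicle. Every HT fluoxetine library was in set 1, while HT vehicle libraries were in all 3 sets, so drug and set are partly confounded in this fit. Within set 1, which also holds HT vehicle libraries, 0.167% of all genes passed for fluoxetine in HT. Fluoxetine in WT mice raised 1 member (5.43% of all genes), Pcdhb3, from 70.7, 104 and 126 to 106, 129.7 and 159.5 (0.29 ± 0.09, adjusted p = 0.0387). That call was lost (0.0501 to 0.0828) without any 1 of 12 of the 25 libraries compared: fluoxetine females 1, 2 and 3, fluoxetine males 1, 2 and 3, vehicle females 3, 4 and 5, and vehicle males 1, 2 and 4. Without the 24 libraries with high olfactory bulb or striatal markers it was at 0.36 (0.55). In the fit of all libraries, all 21 beta members had a positive log2 difference for fluoxetine in WT, with a median of 0.12. The share of positive differences over all genes was not computed. No library set holds both fluoxetine and vehicle WT libraries.

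Lithium in HT mice raised 1 member (1.52% of all genes), Pcdha12, whose HT median was 576 under lithium and 423 under vehicle (0.30 ± 0.08, adjusted p = 0.0453). The call did not hold within library set 2 (0.22 ± 0.10, 0.358) or without the 24 libraries with high markers (0.37, 0.223). It was also lost (0.0535 to 0.147) without any 1 of 13 of the 25 libraries: lithium females 1 and 3, lithium males 2, 3, 4 and 5, vehicle females 1, 2, 3 and 6, and vehicle males 1, 3 and 5. Of the 14 alpha members, 13 had a positive difference (median 0.12), and 10 within set 2 (median 0.04). The matching shares over all genes were not computed.

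Lithium in WT mice changed 6 members (10.5%) where 36.1% of all genes passed, a smaller share than the background. Pcdha12 (0.29 ± 0.09, adjusted p = 0.00916) and Pcdhgc5 (0.30 ± 0.10, 0.0119) were higher, and Pcdhb8 (−0.40 ± 0.14, 0.0256), Pcdhb15 (−0.24 ± 0.09, 0.0297), Pcdhb16 (−0.24 ± 0.10, 0.0456) and Pcdhb21 (−0.26 ± 0.09, 0.0154) lower. Within set 2 none passed by limma (0.664% of all genes), and 3 had an unadjusted p under 0.05. There Pcdhgc5 was at −0.07 ± 0.10, the opposite sign, Pcdha12 at 0.04 ± 0.11, Pcdhb8 at −0.02 ± 0.17 and Pcdhb21 at −0.29 ± 0.11 (0.222). Under vehicle, WT Pcdhgc5 averaged 7416 ± 370.2 in the 5 libraries of set 2 and 5103 ± 838 in the 10 of set 3, so its level differed between sets within 1 group. Without the 24 libraries with high markers all 6 lost their calls, with adjusted p of 0.243 for Pcdha12 to 0.867 for Pcdhb15. In the fit of all libraries, Pcdha12 and Pcdhgc5 lost their calls without WT lithium male 1 (0.0817 and 0.064), Pcdhb21 without WT lithium female 5 (0.0685), and Pcdhb8 without WT lithium female 3 or WT lithium male 1 (0.0582 and 0.136). Pcdhb15 lost its call (0.0506 to 0.171) without any 1 of 7 WT libraries (lithium females 4 and 5, lithium male 2, vehicle female 5, vehicle males 2, 3 and 5). Pcdhb16 lost it (0.051 to 0.499) without any 1 of 12 (lithium females 1, 4 and 5, lithium male 2, vehicle females 1, 5 and 7, vehicle males 1, 2, 3, 4 and 5).

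No member's genotype difference changed with treatment at the adjusted threshold in the fit of all libraries by limma. Against vehicle, 7 members under fluoxetine and 5 under lithium had an unadjusted p under 0.05, with smallest adjusted p of 0.237 and 0.0939. The limma background was 0.0% and 2.8%. Both edgeR (0.00558% and 3.11% of all genes) and DESeq2 (0.123% of all genes under fluoxetine) called 0 members. For fluoxetine against lithium, limma called 0 (background 0.19%), edgeR 0 and DESeq2 1 (0.904% of all genes), with 10 members under an unadjusted p of 0.05. The smallest adjusted p was 0.0759 for Pcdhgc4, whose 2 opposite differences were 0.52 ± 0.14 apart, and this member passed in the fit of group by library set (0.52 ± 0.13, 0.0341, background 1.21%). Every fluoxetine library was in set 1 and every lithium library in set 2, so neither fit can tell treatment from set here. The genotype difference was lower under fluoxetine than under lithium in 48 of 57 members and in 21 of the 22 gamma members, with Pcdhgc4 the exception. The matching share over all genes was not computed. Members share libraries and, within gamma, constant exons, so these counts are descriptions only.

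Between the sexes 1 member passed (0.1% of all genes). Pcdhb12 was higher in females (0.19 ± 0.04, adjusted p = 0.0303), with medians of 248 in HT females, 223 in HT males, 249.5 in WT females and 215.5 in WT males and overlapping ranges. DESeq2 called 3 members (0.14% of all genes). The call was lost (0.0501 to 0.0968) without any 1 of 13 of the 68 libraries, of which 7 were HT (fluoxetine females 1 and 5, fluoxetine males 1, 3 and 5, lithium female 2, lithium male 1) and 6 WT (fluoxetine females 2 and 3, fluoxetine male 3, lithium females 2 and 3, lithium male 3), and without the 24 libraries with high markers (0.18, adjusted p = 0.9999). Pcdha8 had a larger difference, 0.66 ± 0.16, that did not pass (0.0874). The genotype difference did not differ between sexes for any member at the adjusted threshold by limma, edgeR or DESeq2, with 5 members under an unadjusted p of 0.05 and a smallest adjusted p of 0.474 (background 0.0%).

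Members varied between libraries of 1 group and library set to different degrees. The median SD within a group and library set was 0.23 for alpha, 0.20 for beta and 0.19 for gamma, on the log2 scale. It leaves out the spread between sets inside a group. Pcdhb17 and Pcdhb22 (0.11 each) and Pcdhac2 (0.12) varied least, and the sparse Pcdha8 (0.63) and Pcdhgb8 (0.41) most. For correlations, the mean of each group within each library set was removed. Adjacent members then correlated over the 68 libraries with a median r of 0.32 in beta (20 pairs), 0.30 in gamma (21) and 0.10 in alpha (13). Non-adjacent pairs of a subcluster had medians of 0.27, 0.22 and 0.11. The highest values joined Pcdhgb7 with Pcdhga11 (0.67) and Pcdhgb6 with Pcdhgb7 (0.66), and the lowest joined Pcdhgc4 with Pcdhga4 (−0.47), Pcdhga5 (−0.45) and Pcdhga9 (−0.43). Members share libraries, depth and, within alpha and gamma, constant exons, so these r values are descriptions only.

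Of 24 regulators of the cluster (CTCF, cohesin and its loaders, DNA methyltransferases, Smchd1 and others) none passed over all treatments (7.43% of all genes) by limma, edgeR or DESeq2, and 1 had an unadjusted p under 0.05. Under vehicle 3 of the 24 passed (12.5%), near the 15.0% of all genes: Pds5b (−0.11 ± 0.03), Esco1 (−0.20 ± 0.06) and Smchd1 (−0.09 ± 0.03), a repressor of the cluster, were lower. None of these 3 was called within set 2, where they were at −0.13 ± 0.05, −0.08 ± 0.07 and 0.00 ± 0.04. Of the 5 genes of the complex that ADNP forms with CHD4 and HP1 proteins, Adnp and Chd4 (0.14 ± 0.02, adjusted p = 6.30e-06) were higher over all treatments. Of all genes tested, 4.31% were higher in that comparison.

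Of 26 genes listed as neighbours of the cluster, none passed over all treatments by limma, edgeR or DESeq2, and 2 had an unadjusted p under 0.05. Among 12 protocadherins outside the cluster 1 passed (8.33%), Pcdh15 (−0.14 ± 0.04, 0.0472), and among 23 binding and signalling partners 1 (4.35%), Fyn (−0.10 ± 0.03, 0.0417), shares near the 7.43% of all genes. Neither passed in the fit of group by library set. Of 5 other transcripts inside the cluster, listed after their presence in the table was seen, Gm10545 was lower (−0.46 ± 0.13, 0.0211), where 3.12% of all genes were lower.

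Some markers of other cell types were lower in HT over all treatments, where 3.12% of all genes were lower. Of 7 mural cell markers 5 were lower in HT (Myh11, Acta2, Tagln, Abcc9 and Kcnj8; list median −0.20) and of 9 astrocyte markers 3 (Gjb6, Slc1a3 and Aqp4; −0.09). A single marker was lower of 6 for oligodendrocyte precursors (Pdgfra), 10 for interneurons (Npy), 7 for choroid plexus (Kl) and 6 for meninges (Igf2), and the others of these lists did not pass. Summed mural markers ran from 5214 to 7185 in HT and 6389 to 7991 in WT under vehicle, and summed astrocyte markers from 100273 to 142767 and 112369 to 152084. Mural sums (HT, then WT) were 4940 to 6513 and 5416 to 7164 under fluoxetine, and 5390 to 6810 and 5295 to 7613 under lithium. Astrocyte sums were 101220 to 126514 and 104243 to 139599 under fluoxetine, and 121169 to 153247 and 124124 to 159192 under lithium. Of 9 excitatory neuron markers 0 passed by limma, edgeR or DESeq2 (1 at an unadjusted p under 0.05), with sums of 154084 to 227564 in HT and 141131 to 219141 in WT under vehicle. Summed olfactory bulb markers ran from 6658 to 43313 in HT and 6418 to 44692 in WT under vehicle, 7939 to 28758 and 6218 to 44039 under fluoxetine, and 6203 to 12666 and 5889 to 13781 under lithium. Summed striatal markers ran from 5679 to 24467 and 5778 to 25163, 6358 to 19780.2 and 5752 to 16716, and 8272 to 22806 and 7655 to 15573 in the same order. None of the 8 olfactory bulb and 10 striatal markers passed for genotype over all treatments by limma, edgeR or DESeq2 (0 and 1 at an unadjusted p under 0.05). No marker of the mural, astrocyte or excitatory neuron lists was at 0 in any library. Their part in the differences of the members was not tested.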

How the data were processed

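RNA-seq libraries of 68 prefrontal cortices were made with a stranded mRNA kit, per the labels' protocols. The authors deposited 1 table of normalized counts, a signal value per gene and library. The tools Salmon 0.11.2, DESeq2 1.19.11 and R 3.6.0 and the build GRCm38 come from the submitters' processing notes, which give no roles. Whether counting used strand, and how it treated shared exons, is not given in the sources used here. Each value was a whole multiple of 1 step per library, so whole reads were recovered (100% whole within 0.01).

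Tests used limma 3.58.1 in R 4.3.3 (variance trend, robust) on log2(value + 1), which understates changes of low genes. A single fit of the 12 groups covered 17922 genes, those averaging at least 5 (166 were below). A contrast over both sexes averages the contrasts of females and males. P-values were adjusted over all genes (Benjamini-Hochberg) and passed under 0.05. Adjusted p and counts of passing genes are limma's where no other tool is named. For raw counts edgeR had been planned, and since the deposited values are normalized limma was used. On the recovered reads edgeR 4.0.16 called 2648 genes for genotype under vehicle, where limma called 2680, and DESeq2 1.42.0 was also run. The limma genotype contrasts under each treatment were checked on simulated counts, with the same spread setting for every gene and no library sets.

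Library sets came from average linkage on 1 minus Pearson r over 360 pseudogenes, divided into 3 sets. The fit of group by library set and the fit without 24 libraries with high olfactory bulb or striatal markers (over 2 times the median of 68) were added after seeing the data. Every member could be named. Group values were printed for up to 5 members per subcluster with the smallest p over all treatments and for the C-type genes, and other genes were named from the gene lists where they passed. Pcdhb14, Pcdhb21, Pcdhb3, Pcdhb8 and Pcdhb12 were described because they passed in a comparison. The members and lists were chosen with earlier results of these data known. Positions, lengths and shared sequence came from GENCODE vM21 (GRCm38). The same replicate numbers did not pair samples (median r of −0.00 over 313 pairs).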

Additional observations from a re-analysis of the deposited data

Results flagged for a closer look

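In groups of 4 to 8 libraries, 1 library of the 19 members with printed group values lay far from the others of its group in 7 of 209 member groups tested, and chance gives about 1 in 20. The gap to the next library exceeded Dixon's 95% critical value in each. For Pcdhac1, HT lithium female 3 was the highest of 4 at 499, with the next at 364. For Pcdha12, HT lithium male 1 was the lowest of 5 at 492, with the next at 576. For Pcdhb22, HT vehicle female 3 was the highest of 8 at 551 (next 459.8), and for Pcdhga2, HT vehicle female 4 was the lowest of 8 at 339 (next 422). Pcdhgc3 had 3 such libraries: WT lithium female 5 at 3179 (next 3942), WT vehicle female 4 at 4578 (next 3975) and WT vehicle male 3 at 4759.8 (next 4020.3). The genotype calls on Pcdhac1 and Pcdha12 under lithium and on Pcdhga2 under vehicle were not lost without the library named here.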

How the results depend on the processing

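The alternatives were pseudocounts of 0.5 and 5, no filter, TMM factors, edgeR, DESeq2, only the groups compared, library set as a term, the replicate number as a block, the fit of group by library set, and leaving out the libraries with high olfactory bulb or striatal markers. Of 143 counts of passing members under them, 116 stayed within 1.5 times the main count, and the cause of the other 27 changes was not tested. Library set as a term gave 12 members for genotype under vehicle, 11 of them among the 25 of the main fit. A fit of only those groups gave 15. Fluoxetine in HT gave 1 with DESeq2 against 0. Fluoxetine in WT gave 2 with TMM, 6 with DESeq2 and 0 with set as a term or only the groups compared, against 1. Lithium in HT gave 0 with set as a term or by set, against 1. Lithium in WT gave 0 with set as a term or by set and 2 with only the groups compared, against 6. Sex gave 3 with DESeq2 against 1, and genotype under fluoxetine against lithium gave 1 with DESeq2, set as a term or by set, against 0. The only reversals were of Pcdhgc5 for lithium in WT, at −0.071 by set and −0.030 with set as a term. Of single members' calls 950 kept side and direction and 110 were lost. TMM reversed no called member. Without the 24 libraries with high markers, an alternative chosen after seeing the data that tests fewer samples, genotype gave 11 members under vehicle, 7 under fluoxetine, 7 under lithium and 3 in set 2, against 25, 16, 14 and 7, and fluoxetine in WT, lithium in HT, lithium in WT and sex gave 0, against 1, 1, 6 and 1.

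With the replicate number as a block, which did not pair samples, genotype gave 27 members under vehicle, 17 under fluoxetine, 14 under lithium, 33 over all treatments and 6 in set 2. Fluoxetine in WT gave 8, lithium in HT 4 and lithium in WT 11. Under vehicle, the libraries of set 2 were those with replicate numbers 6 to 8, so the block also carried library set there.

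With each library left out in turn, genotype gave 21 to 29 members under vehicle, 13 to 18 under fluoxetine, 10 to 16 under lithium, 32 to 34 over all treatments and 4 to 6 in set 2 (4 without WT vehicle male 6). Fluoxetine gave 0 to 1 in HT and 0 to 5 in WT, lithium 0 to 1 in HT and 3 to 10 in WT (3 without WT lithium male 1, 10 without WT lithium male 3), sex 0 to 2, and genotype under fluoxetine against lithium 0 to 1. The other differences of effects gave 0 to 0. Sparse members such as Pcdha8 and Pcdhgb8 had the widest spread, which limits what could be detected for them.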
